A study of Schizosaccharomyces pombe with 22 samples.

Results

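Splice junctions that the authors listed apart from their annotated introns were compared between heat-shocked cells and cells past the diauxic shift in the fission yeast Schizosaccharomyces pombe, from 4 polyadenylated RNA-seq libraries of a series of 22. The groups were heat shock (wt 972h- and its dbr1 deletion, which the labels write Δdbr, 1 library each; the labels give neither the temperature nor the duration of the shock) and diauxic shift (the same pair of strains, 1 library each, at 30 °C). Both strains in rich media at 30 °C (1 library each) entered the statistical fit for the spread and are given as a background level. The junctions were those of the authors' lists of alternate and unannotated introns, each listed with at least 1 branch point. Collapsed to 1 entry per chromosome, 5' splice site and 3' splice site, the lists held 10352 junctions, of which 1766 had a read in any of the 4 libraries and 255 (80 alternate, 175 unannotated) had the 10 reads over the 4 libraries that were set as the minimum for testing. Of the 255, 11 are introns of the reference annotation used here, which differs from the authors' one.

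Splicing removes an intron between a GT at its 5' end and an AG at its 3' end after an adenosine near the 3' end, the branch point, has attacked the 5' site and closed the intron into a lariat. Dbr1 is the enzyme that opens such lariats, so cells without it keep them. In heat shock, cells transcribe chaperone genes strongly and mRNA processing is disturbed in many organisms. At the diauxic shift glucose runs out and metabolism turns to respiration. A junction read counts spliced RNA, so it moves with the amount of the transcript as well as with the choice of splice site, and in a culture fewer cells with the transcript and less of it per cell cannot be told apart.

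Sites of the 9 junctions with the lowest adjusted p are shown to place them on the genome and to set alternate sites beside the annotated ones. Positions match the ASM294v3 reference from RefSeq, each line is given 5' to 3' on the strand of the intron, and at 5' sites capitals mark the first 6 bases of the intron, at branch points the 5 bases around the branch A, and at 3' sites the terminal AG.
SPNCRNA.1282 5' site, chrIII:2291990-2292009 (+): ccaaagGTATAAcctctttt
SPNCRNA.1282 branch point, chrIII:2292064-2292079 (+): tagtttcCTAACttat
SPNCRNA.1282 3' site, chrIII:2292070-2292089 (+): cctaacttatacAGcgttca
aha1 alternate 5' site, chrII:2149459-2149478 (+): tcaaagGTTTGGaatattta
aha1 annotated 5' site, chrII:2149151-2149170 (+): taactgGTATGTacagtagt
aha1 branch point, chrII:2149510-2149525 (+): tgattcgCTAACtcaa
mamRNA 5' site, chrII:1308185-1308204 (+): gtaaagGTATGTtcgccgta
SPNCRNA.529 5' site, chrI:3478864-3478883 (-): ttaattGTAAGTaataattt
SPNCRNA.529 branch point, chrI:3478718-3478733 (-): aatttttCTAAAtaaa
SPNCRNA.648 5' site, chrI:439600-439619 (-): cgatttGTATGActgtctct
SPNCRNA.648 branch point, chrI:439567-439582 (-): tccgccaCTAACgaat
sap49 5' site, chrI:2989585-2989604 (+): gatagaGTAAGGaatagtca
sap49 branch point, chrI:2989622-2989637 (+): gcgaattCTTACacga
SPBP4H10.12 5' site, chrII:2895818-2895837 (+): ttgacgGTAAGCaaacccag
btf3 alternate 5' site, chrI:4861317-4861336 (-): tttattGTAAGTatgggagc
btf3 annotated 5' site, chrI:4861173-4861192 (-): gtattgGTATGTtcgaatgc
prz1 5' site, chrI:790132-790151 (-): cctttaGTAAGTccagtaaa
The form GTANGT, read on the intron's strand at its first base, stood at 2 of the 9 junctions that were higher in heat shock, 2 of the 6 that were lower, 43.5% of the 255 tested and 35.1% of all 10352. A branch sequence of the form CTNAC or CTNAT, with the A as the listed branch point, stood at 7 of the 9, 4 of the 6, 72.9% of those tested and 48.2% of all. The higher junctions had a median intron length of 87 bases and the lower ones 173, against 86 among all tested.

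The 4 libraries held 12330328 to 18855775 aligned reads, with 95.7% to 96.1% of reads aligned. Reads on the listed junctions numbered 5493 in wt and 4219 in the dbr1 deletion after heat shock, against 6753 and 3941 after the diauxic shift. Scaled to RPM, the reads for every 1000000 aligned reads, these are 362 and 251 in heat shock, against 358 and 320 in diauxic shift, so wt was level between the conditions and the dbr1 deletion was lower in heat shock. As each strain has 1 library per condition, strain is the only replicate, and the libraries carry no label of separate cultures. The p-values measure the spread among libraries. In the main edgeR fit this spread was pooled over all tested junctions, so a junction's own spread between libraries had no weight in its p-value.

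Of the 255 junctions, 15 differed between the conditions at an adjusted p below 0.05 (edgeR quasi-likelihood test, Benjamini-Hochberg, strain as block), which is 5.88% of those tested. Heat shock was higher at 9 (3.53%) and lower at 6 (2.35%), and 38 had an unadjusted p below 0.05. DESeq2 with its own size factors called 6 higher and 1 lower. The RPM of both heat shock libraries lay above both diauxic shift libraries at 50 junctions (19.6%) and below both at 68 (26.7%), together 46.3% of those tested, so an absence of overlap alone is common here. At 69 junctions both strains were higher in heat shock, at 89 both were lower, and at 97 the strains went opposite ways or 1 was level. The median log2 difference over all tested junctions was -0.24, which moved to -0.17 with TMM scaling, -0.08 with scaling by the listed junction reads and 0.08 with DESeq2, so the sign of small differences depends on the scaling. The 15 called junctions kept their direction under every scaling.

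**Figure D1:**
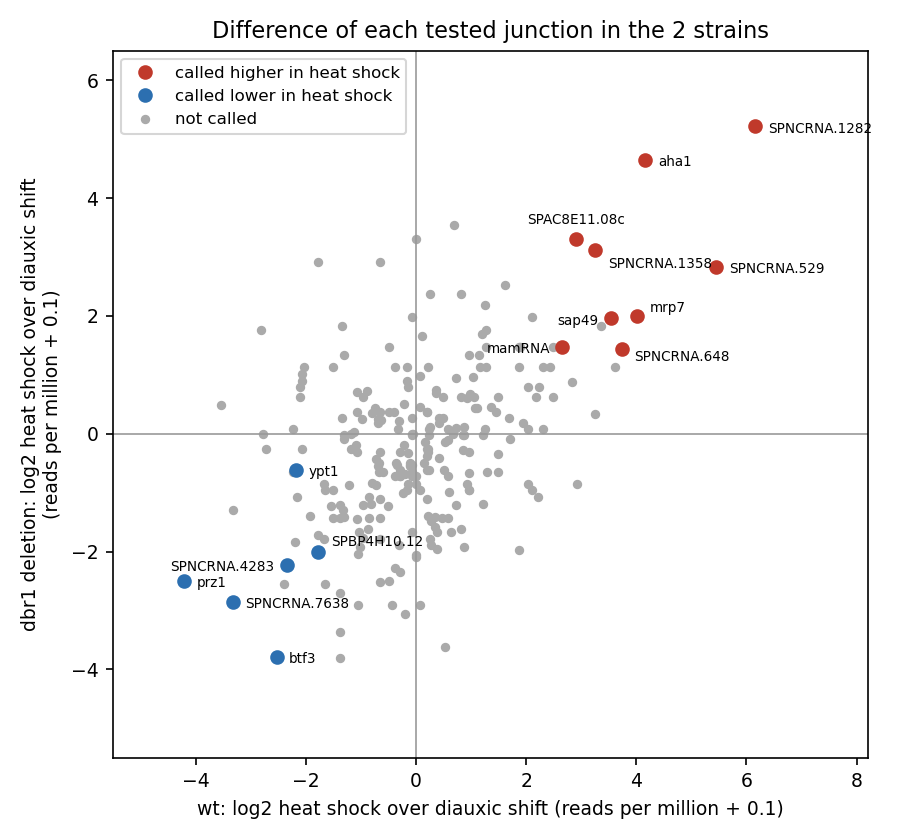
Each point is 1 of the 255 tested junctions, with the log2 ratio of heat shock over diauxic shift in wt on the x axis and in the dbr1 deletion on the y axis, after 0.1 was added to each RPM. The 9 junctions called higher lie in the upper right and the 6 called lower in the lower left, while 97 of the 255 lie in neither of these fields.

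The lowest adjusted p was at an intron of SPNCRNA.1282, a noncoding RNA that overlaps thp1, a DNA glycosylase gene, on the opposite strand (chrIII:2291996-2292083). It had 107 reads in wt and 61 in the dbr1 deletion after heat shock (7.04 and 3.62 RPM), against 0 and 0 after the diauxic shift. In rich media it had 1 and 0. With 3 reads set in place of the diauxic shift sum, heat shock was at least 54.5-fold higher, a value that leaves out counting error, and the lower 95% counting limit was 43.9-fold (edgeR quasi-likelihood, adjusted p = 4.03e-13). Along with the aha1 junction, it was 1 of the 2 junctions that kept their call whichever of the 4 libraries was left out, with an edgeR adjusted p of 0.00844 at most. No source used here says whether reads were counted by strand, so the strand of this and every other junction rests on its splice site letters.

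A further 3 junctions antisense to coding genes were higher in heat shock. That of SPNCRNA.529, opposite dbl4, a ubiquitin-protein ligase gene (chrI:3478710-3478877, minus strand), had 65 and 20 reads in heat shock (wt and dbr1 deletion), against 0 and 1 in diauxic shift, a ratio of 82.8 with a 95% counting interval of 14.5 to 3307 (edgeR adjusted p = 2.08e-05). That of SPNCRNA.648, opposite the DNA repair nuclease gene mre11 (chrI:439559-439613, minus strand), had 94 and 40 reads in heat shock, against 7 and 10 in diauxic shift, and was 7.68-fold higher (4.62 to 13.6; edgeR adjusted p = 5.83e-04). The SPNCRNA.648 difference was 16.7-fold in wt and 2.93-fold in the dbr1 deletion. A junction opposite mrp7, which encodes a mitochondrial ribosomal protein (chrII:2862135-2862221), had 23 and 16 reads in heat shock, against 0 and 2 in diauxic shift (ratio 19.0, interval 4.92 to 162; edgeR adjusted p = 0.0401). In rich media these junctions had at most 10 reads in a library. Calls were lost without the wt heat shock library for SPNCRNA.529 (adjusted p = 0.680), SPNCRNA.648 (0.746) and mrp7 (0.953), without wt diauxic shift (0.117, 0.334 and 0.482, in the same order), and for mrp7 also without the dbr1 deletion heat shock (0.140). The reference places SPNCRNA.529 and SPNCRNA.648 on the strand of the junction and no gene there for the mrp7 one. In all, 45 tested junctions lay antisense to a transcript, 4 of them called higher and 0 lower, against 9 higher (3.53%) and 6 lower (2.35%) of all 255. In both strains 13 of the 45 were higher and 19 lower, against 69 and 89 of the 255. The mrp7 call also ended with DESeq2 (adjusted p = 0.0774), filterByExpr (0.112), no filter (0.256) and the tables fitted apart (0.0515).

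Among the noncoding RNAs without such a partner, mamRNA stood out by its read number. This RNA, which the reference names after its partners Mmi1 and Mei2, the remover of meiotic transcripts and the master regulator of meiosis, was classed as intergenic in the authors' table. Its intron (chrII:1308191-1308417) had 171 and 193 reads in heat shock (11.3 and 11.5 RPM), against 32 and 50 in diauxic shift (1.70 and 4.06 RPM), and 66 and 47 in rich media. Heat shock was 4.32-fold higher (95% counting interval 3.39 to 5.56; edgeR adjusted p = 9.82e-06), by 6.63-fold in wt and 2.83-fold in the dbr1 deletion. The call was lost without the wt diauxic shift library (adjusted p = 0.167). SPNCRNA.1358 (chrII:445019-445085) had 13 and 13 reads in heat shock, against 0 and 0 in diauxic shift and in rich media. It was at least 8.44-fold higher by the 3-read floor over the group, which again leaves out counting error, and the lower 95% counting limit was 6.39-fold (edgeR adjusted p = 0.0215). Its call remained in 1 of the 4 fits that leave out a library, the one without dbr1 deletion diauxic shift (adjusted p = 0.0460), and was lost without wt heat shock (0.747), dbr1 deletion heat shock (0.590) or wt diauxic shift (0.147). It also ended with DESeq2 (adjusted p = 0.0749), filterByExpr (0.320) and no filter (0.209).

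The other 3 higher junctions lay in coding genes. In aha1, which encodes an activator of the Hsp90 chaperone, the junction starts 308 bases downstream of the annotated 5' site. The excised intron is thus 67 bases instead of 375. Whether the 308 bases, a length not divisible by 3, stay in the message was not tested. The junction had 69 reads in wt and 109 in the dbr1 deletion in heat shock (4.54 and 6.47 RPM), against 3 and 2 in diauxic shift (0.159 and 0.162 RPM) and 0 and 1 in rich media. The groups lay far apart, with a 34.7-fold difference (95% counting interval 14.6 to 108; edgeR adjusted p = 1.11e-09), by 28.6-fold in wt (9.37 to 142) and 39.9-fold in the dbr1 deletion (10.8 to 334). Its adjusted p was at most 0.0289 with any one library left out. As its letters above show, the alternate 5' site begins GTTTGG where the annotated one has GTATGT. Reads on the annotated aha1 junction are not analysed here, so these values do not separate site choice from the level of the aha1 message.

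Inside an exon of sap49, which encodes a component of the SF3b complex that holds the branch point in the U2 snRNP, a 52-base intron (chrI:2989591-2989642) had 72 and 42 reads in heat shock, against 6 and 7 in diauxic shift and 3 and 0 in rich media. Heat shock was 8.54-fold higher (4.80 to 16.5; edgeR adjusted p = 9.02e-04), by 14.9-fold in wt and 4.39-fold in the dbr1 deletion. An intron in the 3' UTR of SPAC8E11.08c, an uncharacterized protein (chrI:3376103-3376197), had 22 and 15 reads in heat shock, against 2 and 0 in diauxic shift (ratio 18.02, interval 4.65 to 154; edgeR adjusted p = 0.0352). The sap49 call was lost without wt heat shock (adjusted p = 0.618), dbr1 deletion heat shock (0.233) or wt diauxic shift (0.247). The SPAC8E11.08c call was lost without any one of the 4 libraries (adjusted p = 0.671 without wt heat shock, 0.517 without dbr1 deletion heat shock, 0.117 without wt diauxic shift and 0.102 without dbr1 deletion diauxic shift), and also with DESeq2 (0.0806), filterByExpr (0.112) and no filter (0.243). Of the 9 higher junctions, 6 had under 3 reads in the rich media pair together, as had 2 of the 6 lower ones. The share over all 255 tested junctions was not counted, so these counts do not set the called junctions apart from the others. Rich media reads also had no part in the minimum for testing.

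**Figure D2:**
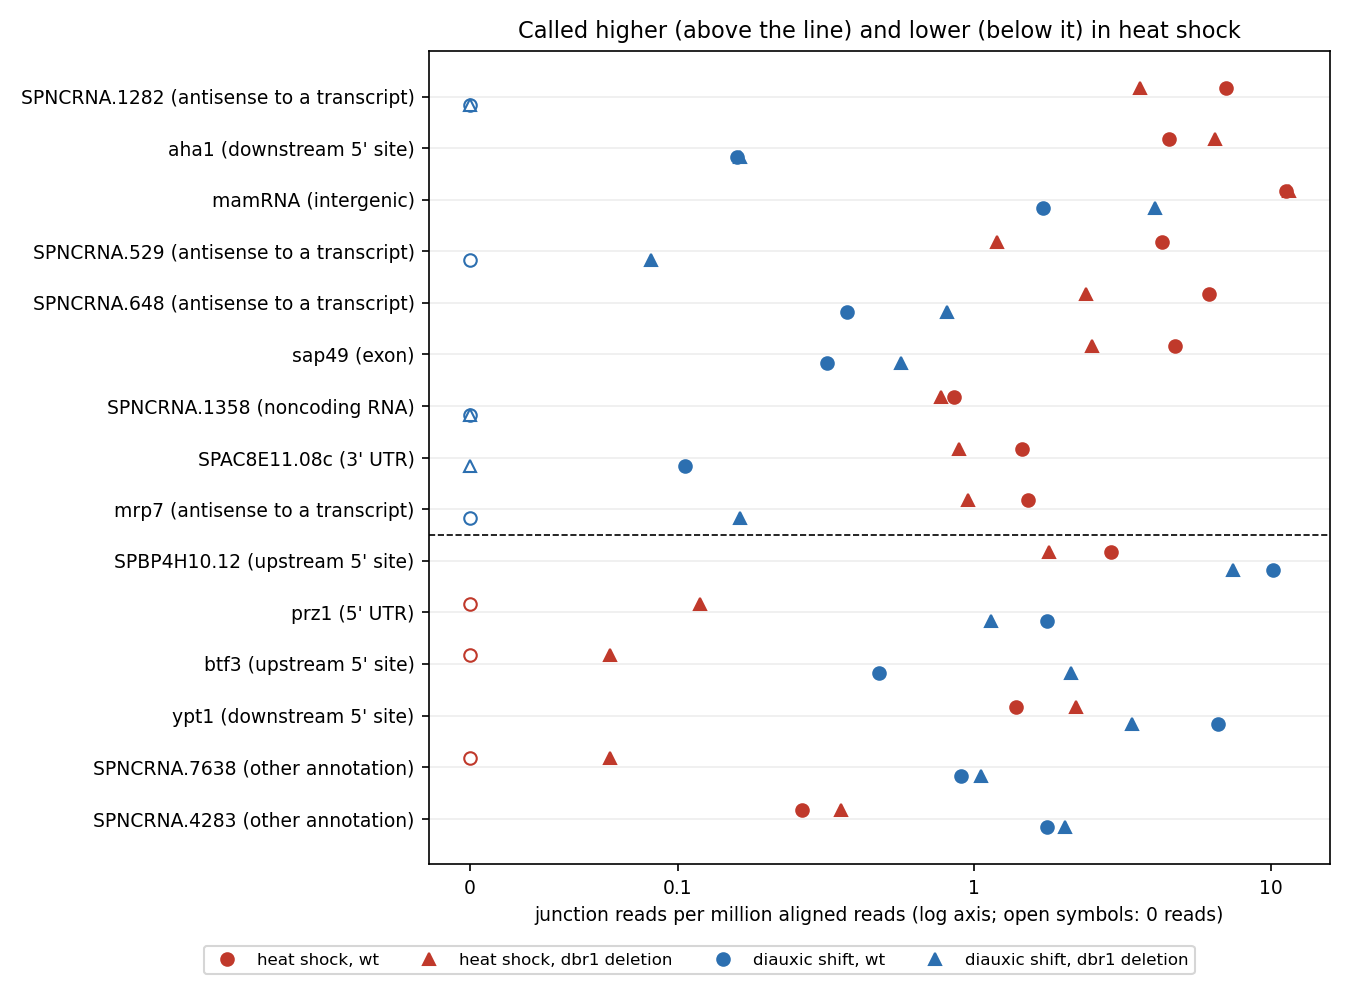
Junction RPM (log axis, open symbols for 0 reads) of the 15 called junctions, with heat shock in red above diauxic shift in blue, circles for wt and triangles for the dbr1 deletion. No row has overlapping groups, which also holds for 46.3% of all 255 tested junctions. The rows were chosen by the test on these libraries. Diauxic shift is at 0 in 1 or both libraries for SPNCRNA.1282, SPNCRNA.529, SPNCRNA.1358, SPAC8E11.08c and the junction opposite mrp7.

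Of the 6 junctions lower in heat shock, that with the most reads belongs to SPBP4H10.12, whose product has a role in the insertion of tail-anchored membrane proteins into the ER (chrII:2895824-2896000). It had 44 and 30 reads in heat shock (2.90 and 1.78 RPM), against 191 and 92 in diauxic shift (10.13 and 7.46 RPM), and 36 and 54 in rich media. Heat shock was at 0.255 of diauxic shift (95% counting interval 0.194 to 0.330; edgeR adjusted p = 1.46e-04), at 0.286 in wt and 0.239 in the dbr1 deletion. The authors listed it as an alternate with an upstream 5' site, and the reference annotation used here lists the same 177 bases as an ordinary intron. Its call was lost without dbr1 deletion heat shock (adjusted p = 0.202) or wt diauxic shift (0.0814).

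Splice sites in 2 further coding genes were lower in RPM in heat shock. In ypt1, a Rab GTPase of transport from the ER to the Golgi, a 46-base intron whose 5' site lies 122 bases downstream of the annotated one (chrII:2933122-2933167) had 21 and 37 reads in heat shock, against 125 and 42 in diauxic shift and 20 and 61 in rich media. The ratio was 0.338 (0.246 to 0.459; edgeR adjusted p = 0.0233), but 0.209 in wt and 0.645 in the dbr1 deletion, where the counting interval of 0.403 to 1.028 includes no change. In btf3, a subunit of the complex that binds nascent polypeptides, a 302-base intron with a 5' site 144 bases upstream of the annotated one (chrI:4861029-4861330, minus strand) had 0 and 1 reads in heat shock, against 9 and 26 in diauxic shift, and 0 in rich media (ratio 0.0278, interval 6.85e-04 to 0.165; edgeR adjusted p = 0.0207). Both its alternate and its annotated 5' site, printed above, have the form GTANGT. The ypt1 call was lost without wt heat shock (adjusted p = 0.747), dbr1 deletion heat shock (0.304) or wt diauxic shift (0.855). For btf3 it was lost without any one of the 4 libraries (0.198 without wt heat shock, 0.497 without dbr1 deletion heat shock, 0.0814 without wt diauxic shift and 0.740 without dbr1 deletion diauxic shift). With DESeq2 and with no filter both calls ended (adjusted p = 0.535 and 0.141 for ypt1, 0.116 and 0.141 for btf3). The ypt1 call also ended with the 4 libraries alone (0.0505) and without the strain block (0.0691).

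In the 5' UTR of prz1, the transcription factor that calcineurin activates, an intron of 177 bases (chrI:789969-790145, minus strand) had 0 and 2 reads in heat shock, against 33 and 14 in diauxic shift, with 0 in both rich media libraries. The ratio was 0.0414 (interval 0.00488 to 0.158; edgeR adjusted p = 0.0205). The remaining 2 were listed under other annotation and lie opposite noncoding RNAs. Opposite SPNCRNA.7638 (chrIII:2110222-2110390, minus strand) there were 0 and 1 reads in heat shock, against 17 and 13 in diauxic shift (ratio 0.0325, interval 7.96e-04 to 0.195; edgeR adjusted p = 0.0278). Opposite SPNCRNA.4283 (chrI:5065706-5065759) there were 4 and 6 reads, against 33 and 25 (ratio 0.168, interval 0.0765 to 0.331; edgeR adjusted p = 0.0395). The prz1 and SPNCRNA.7638 calls remained without dbr1 deletion diauxic shift (adjusted p = 0.00961 and 0.0445). Without wt heat shock, dbr1 deletion heat shock or wt diauxic shift they were lost (prz1 0.671, 0.0812 and 0.342; SPNCRNA.7638 0.532, 0.264 and 0.117, in that order). The SPNCRNA.4283 call was lost in all 4 of these fits, with adjusted p of 0.671, 0.511 and 0.147, and 0.173 without dbr1 deletion diauxic shift. With DESeq2 the adjusted p was 0.948 for prz1, 0.162 for SPNCRNA.7638 and 0.162 for SPNCRNA.4283, and with no filter 0.102, 0.209 and 0.209, so all 3 calls ended under both. The SPNCRNA.7638 call also ended with filterByExpr (0.112), and the SPNCRNA.4283 call with scaling by listed junction reads (0.0508) and the tables fitted apart (0.0551).

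Among the 10 junctions with the most reads, only those of mamRNA and SPBP4H10.12 were called. The 2 junctions of tom7, which encodes a subunit of the mitochondrial import pore, are both introns of the reference annotation. One (chrII:1343935-1343988) had 508 and 479 reads in heat shock, against 810 and 495 in diauxic shift. The other (chrII:1344026-1344081) had 603 and 425 in heat shock, against 810 and 441 in diauxic shift. Their log2 differences were -0.43 ± 0.19 and -0.30 ± 0.19 (SE; edgeR adjusted p = 0.267 and 0.514). At vma13, a V-type ATPase subunit with an alternate 3' site, the libraries held 87 and 100 reads in heat shock, against 169 and 62 in diauxic shift. The exon junction of elo1, a fatty acid elongase, had 74 and 57 against 96 and 42, with a log2 difference of -0.04 ± 0.40 (SE; edgeR adjusted p = 0.984). At the first tom7 junction both heat shock libraries lay below both diauxic shift libraries in RPM, without passing the test.

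Few of the listed genes carried enough junction reads to be tested, and the counts of calls below stand against 5.88% of all 255 tested. Among chaperones and other heat shock proteins the only tested junction was that of aha1, out of 30 listed, and none of the 22 core stress junctions or the 31 junctions of RNA decay genes had 10 reads. In respiration genes 3 of 99 listed junctions were tested and 0 were called, with qcr6, a subunit of the ubiquinol-cytochrome c reductase, at 0 and 4 reads in heat shock, against 17 and 9 in diauxic shift (edgeR adjusted p = 0.222), and atp17, an ATP synthase subunit, at 1 and 0 against 10 and 2 (0.514). The third, lsc1, was listed by its name and is annotated as a cyclin. In splicing genes 6 of 133 were tested and 1 (sap49) was called. An alternate 3' site of prp10, the large SF3b subunit, had 46 and 25 reads in heat shock, against 28 and 11 in diauxic shift (log2 difference 0.91 ± 0.63, SE; edgeR adjusted p = 0.566). Of the other splicing genes, srp14 belongs to the signal recognition particle and was listed by name alone. In ribosomal protein genes 3 of 172 were tested and 0 called, with rpl2502 at 74 and 40 against 102 and 37 reads, while rpp40, also tested, encodes an RNase P subunit. Of 134 junctions in meiosis and mating genes 3 were tested and 0 called. That of mug108 had 0 and 0 reads in heat shock, against 3 and 16 in diauxic shift (edgeR adjusted p = 0.0575).

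At 10 places a pair of tested junctions shared a splice site, so the share of the rarer one is less affected by the level of the transcript. In ptf1, a phosphoric monoester hydrolase with a pair of 5' sites joined to the same 3' site, the rarer junction took 36.0% of the pair's 50 reads in wt (exact 95% binomial interval 22.9% to 50.8%) and 27.6% of 29 in the dbr1 deletion (12.7% to 47.2%) in heat shock. In diauxic shift it took 12.2% of 49 (4.63% to 24.8%) in wt and 0 of 23 in the dbr1 deletion, which allows a share of up to 13.04%. In deb1, a transcription factor, the rarer junction took 25.8% of 31 reads (11.9% to 44.6%) and 20% of 10 (2.52% to 55.6%) in heat shock, against 8.82% of 34 (1.86% to 23.7%) and 0 of 9, which allows up to 33.3%, in diauxic shift. The shares in heat shock lay above those in diauxic shift in both strains at ptf1 and deb1, with overlapping intervals. Pairs at csr102 (36.0% and 27.3% in heat shock, against 37.9% and 42.1% in diauxic shift) and at SPCC1259.16 (31.6% and 42.9%, against 60% and 53.3%) went the other way in both strains. In the other 6 pairs the strains differed or a library had no read of the pair. No junction of ptf1, deb1, csr102 or SPCC1259.16 was called, and they are given as descriptions, chosen after their values were seen.

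Summed over event classes, the widest difference was in the junctions under other annotation. These, 90 in all and few in reads, summed to 1.78 and 1.37 RPM in heat shock (27 and 23 reads), against 4.30 and 4.22 RPM in diauxic shift (81 and 52 reads), a log2 difference of -1.45 ± 0.25 (SD over the 2 strains), and 37.2% of those reads came from the junction opposite SPNCRNA.4283. Upstream 5' sites summed to 21.6 and 14.4 RPM in heat shock, against 32.3 and 27.2 RPM in diauxic shift (log2 -0.75 ± 0.24), with 23.6% of reads at SPBP4H10.12. Without it the log2 differences were -0.25 in wt and -0.65 in the dbr1 deletion. Without SPBP4H10.12 and btf3, its called junctions, the class had 18.7 and 12.5 RPM in heat shock, against 21.7 and 17.7 RPM in diauxic shift. That is lower in both strains, but with overlapping groups. Downstream 3' sites were lower in both strains (13.5 and 9.38 RPM in heat shock, against 17.6 and 15.6 RPM in diauxic shift), and downstream 5' sites higher (22.3 and 20.4 RPM, against 19.7 and 13.9 RPM). Without the aha1 junction the downstream 5' sites had 17.8 and 13.9 RPM in heat shock, against 19.6 and 13.8 RPM in diauxic shift. Without aha1 and ypt1, which were called in opposite directions, they had 16.4 and 11.7 RPM, against 12.9 and 10.4 RPM. That is higher in both strains, but with overlapping groups. Intergenic junctions summed to 33.2 and 25.5 RPM in heat shock, against 23.4 and 24.4 RPM in diauxic shift, but without mamRNA to 21.9 and 14.02 RPM, against 21.7 and 20.4 RPM. The class under other annotation without its 2 called junctions had 1.51 and 0.950 RPM, against 1.64 and 1.14 RPM. With 2 strains an exact permutation test within strains cannot go below p = 0.5, so the classes were not tested.

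In 3 of the unannotated classes the strains differed in direction. Junctions inside exons summed to 43.1 RPM in wt and 22.9 RPM in the dbr1 deletion in heat shock, against 26.7 and 28.5 RPM in diauxic shift. Junctions antisense to a transcript had 51.8 and 31.8 RPM in heat shock, against 37.4 and 43.1 RPM in diauxic shift, and those antisense to a noncoding RNA 16.7 and 9.62 RPM, against 14.6 and 15.3 RPM. In each of the 3, wt was higher and the dbr1 deletion lower in heat shock. Without its 4 called junctions the class antisense to a transcript had 32.8 and 23.6 RPM in heat shock, against 37.0 and 42.0 RPM in diauxic shift, lower in both strains. This goes with the total of listed junction reads, whose ratio of heat shock over diauxic shift was 1.01 in wt and 0.784 in the dbr1 deletion, and the part of either in the other was not tested. Junctions in 3' UTRs, the most abundant class, summed to 101 and 78.3 RPM in heat shock, against 121 and 106 RPM in diauxic shift, with 35.6% of reads from tom7.

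**Figure D3:**
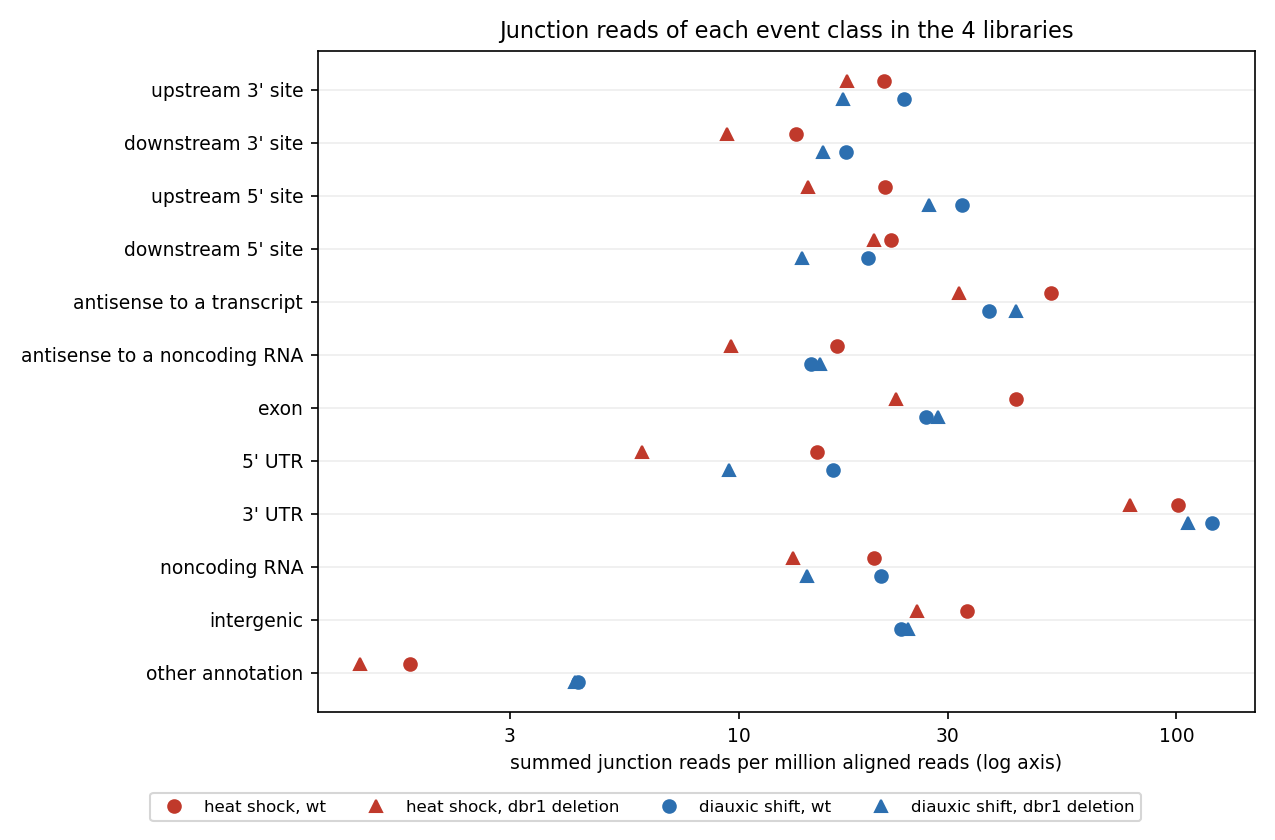
Summed junction RPM (log axis) of each of the 12 event classes, heat shock in red above diauxic shift in blue, circles for wt and triangles for the dbr1 deletion. The groups lie apart for upstream 5' sites, downstream 3' sites, downstream 5' sites, 3' UTRs, intergenic junctions and other annotation, and they overlap in the other 6 classes. Without their called junctions the upstream 5' sites, downstream 5' sites, intergenic junctions and other annotation overlap as well.

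The authors' table also gives for unannotated junctions a fraction headed PSI, which usually stands for the share of transcripts spliced at the junction and whose denominator no source used here gives. Of the 175 tested unannotated junctions, PSI was higher in heat shock in both strains at 87 and lower in both at 24. Median PSI was 0.286 in wt and 0.200 in the dbr1 deletion in heat shock, against 0.143 and 0.144 in diauxic shift, and 0.133 and 0.0769 in rich media. The rich media medians are not on an equal footing, because rich media reads did not count toward the minimum for testing. In wt 127 junctions had the higher PSI in heat shock and 44 the lower, and in the dbr1 deletion 105 and 66. RPM did not follow in number, being higher in heat shock at 90 of the 175 in wt and 74 in the dbr1 deletion. Of the 87 junctions with higher PSI in both strains, RPM was higher in both strains at 47, lower in both at 14 and divided at 26.

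The imbalance was also present among the 28 junctions with at least 10 reads in each library, where PSI was higher in both strains at 16 and lower in both at 2, while RPM was higher in both at 3. In sce3, a translation initiation factor with a 3' UTR junction, PSI was 0.827 and 0.779 in heat shock, against 0.645 and 0.644 in diauxic shift, although its reads (55 and 53, against 151 and 38) were not called. In elo1 it was 0.569 and 0.469 in heat shock, against 0.335 and 0.217 in diauxic shift, and its reads, given above, were not called either. By class, PSI was higher in both strains at 15 of 25 exon junctions (lower in both at 2), 14 of 25 in noncoding RNAs (1) and 10 of 16 intergenic ones (1), and at 20 of 45 antisense to a transcript (10).

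Tested junction by junction with limma on log2(PSI + 0.01), 4 of the 175 (2.29%) were called, 3 higher (1.71%) and 1 lower (0.571%). These were SPNCRNA.1282 (PSI 0.530 and 0.389 in heat shock, 0 and 0 in diauxic shift; adjusted p = 0.0479), SPNCRNA.1358 (0.143 and 0.147, against 0 and 0; 0.0219), a 3' UTR junction of spo12 (0.274 and 0.261, against 0 and 0; 0.0187) and, lower in heat shock, an intergenic one at SPNCRNA.311 (0 and 0, against 0.372 and 0.522; 0.0187). Each of the 4 has 0 reads in both libraries of a condition, and none was called when any one of the 4 libraries was left out. All 8 unannotated junctions with reads called higher also had a higher PSI in both strains, for instance mamRNA (0.549 and 0.615 in heat shock, against 0.302 and 0.327 in diauxic shift) and SPNCRNA.648 (0.734 and 0.567, against 0.0897 and 0.185). Of the 3 unannotated junctions with reads called lower, 0 had a lower PSI in both strains. That opposite SPNCRNA.4283 had 1.00 and 0.706 in heat shock, against 0.725 and 0.758 in diauxic shift, while its reads fell. PSI and reads come from the same libraries, so the one is no separate evidence for the other.

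**Figure D4:**
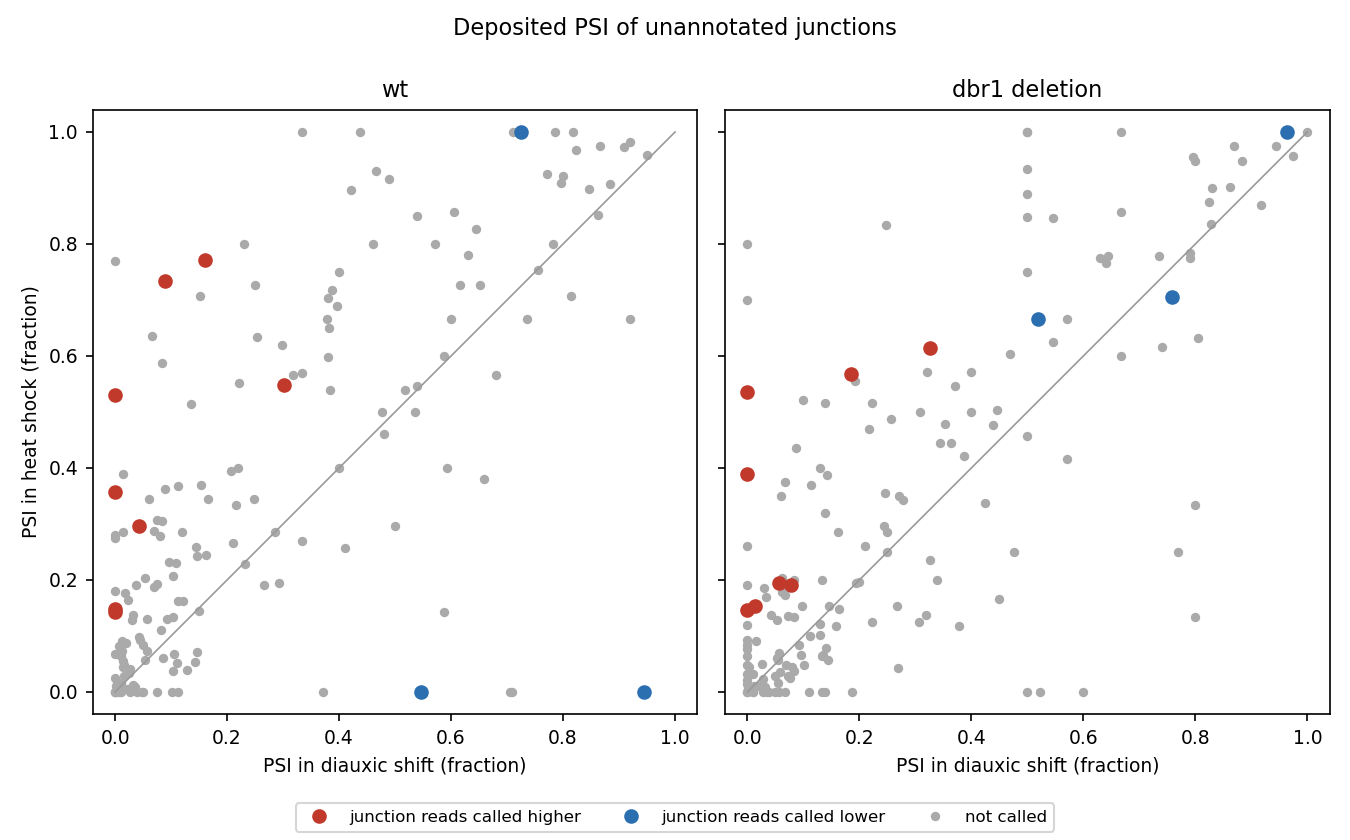
Deposited PSI (a fraction from 0 to 1) of the 175 tested unannotated junctions, diauxic shift on the x axis and heat shock on the y axis, wt on the left and the dbr1 deletion on the right, with the diagonal for equal values. More points lie above the diagonal than below it, 127 against 44 in wt and 105 against 66 in the dbr1 deletion.

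The lariat reads that the authors summed over all lariat libraries of the dbr1 deletion in a condition were set beside the junction reads as a further readout of the same introns, without scaling for depth. The mamRNA intron had 6394 lariat reads in heat shock, against 3147 in diauxic shift, the same direction as its junction reads. Of the other junctions called higher, 2 had at least 10 lariat reads, and both had more in diauxic shift (SPNCRNA.529 16 in heat shock, against 20, and SPAC8E11.08c 6, against 40). The SPNCRNA.1282 intron, under that minimum, had 0 lariat reads in heat shock, against 4 in diauxic shift, opposite to its junction reads. The SPBP4H10.12 intron had 178 in heat shock, against 101 in diauxic shift, opposite to its junction reads. Of the 113 uncalled tested junctions with at least 10 lariat reads, 23 had more in heat shock and 88 more in diauxic shift. The aha1, sap49, SPNCRNA.648 and ypt1 introns had 0 lariat reads in both conditions, so at these the lariats give no second value.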

How the data were processed

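Gene and junction values came from the supplementary workbook of the series. Junction counts were used as deposited, whole read counts per junction and library, and the authors also deposited the aligned reads per library. PSI is a fraction that the authors deposited for unannotated junctions. Per the submitters' processing notes, positions refer to ASM294v2. All 11844 listed branches had GT, a branch A and AG at the listed positions in ASM294v3, so that reference was used for sequences and annotation. No source used here names the aligner.

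Strand was read from the splice sites. Junction counts were fitted with edgeR 4.0.16 (R 4.3.3, glmQLFit and glmQLFTest) on the 6 growth libraries, aligned reads as library size, strain as block (the same strain is shared across conditions per the labels), at least 10 reads over the 4 libraries compared and Benjamini-Hochberg adjustment over all 255. The fit has 2 residual degrees of freedom and a common dispersion of 0.171. Its prior degrees of freedom were infinite, which pools the spread over all tested junctions. PSI was tested with limma 3.58.1. DESeq2 1.42.0 was an alternative. Single-ratio intervals are exact 95% counting intervals and cover counting error only. Bounds put 3 reads in place of 0. Differences between the dbr1 deletion and wt in log2(RPM + 0.1), centred on their median, were correlated between conditions over the tested junctions. The correlations were 0.022 for heat shock with diauxic shift, 0.075 for heat shock with rich media and 0.027 for diauxic shift with rich media. Strain differences were thus barely shared between conditions. The fit was tested on simulated data with the same dispersion at every junction. It recovered no change of the smallest size set, missed most at the middle size and missed some at the largest. A junction that was not called is therefore not shown to be level between the conditions. Named were all called junctions, the 10 most read and those in the gene lists. The members, lists and tests were chosen with earlier results of these data known. Tables were handled with pandas 2.3.3 and NumPy 2.4.6 in Python 3.11.15, intervals came from SciPy 1.17.1, and matplotlib 3.10.9 drew the figures.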

Additional observations from a re-analysis of the deposited data

Results flagged for a closer look

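Beyond the counting error of single libraries, 4 junctions went opposite ways in the 2 strains, so that heat shock was above diauxic shift in 1 strain and below it in the other. The difference between the strains was not tested, since each strain has 1 library per condition, and the junctions were picked out of 255 for it. A junction of alb1, a ribosome biogenesis protein, was at 0.191 of diauxic shift in wt (2 reads against 13, counting interval 0.0209 to 0.844), and in the dbr1 deletion it had 11 reads in heat shock, against 0 in diauxic shift, with a lower counting limit of 1.84-fold. An exon junction of ekc1, a phosphatase regulatory subunit, was 2.43-fold higher in wt (43 reads against 22) and at 0.415 in the dbr1 deletion (17 against 30). SPNCRNA.1366 was 8.69-fold higher in wt (7 reads against 1, counting interval 1.12 to 391.7) and at 0.203 in the dbr1 deletion (5 against 18). SPNCRNA.1042 was at 0.355 in wt (8 against 28) and 5.13-fold higher in the dbr1 deletion (14 against 2, counting interval 1.18 to 46.5). None of the 4 was called over both strains.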

How the results depend on the processing

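All alternatives kept the direction of the 15 called junctions that they fitted. With TMM scaling the same 15 were called, 9 higher and 6 lower. With the 4 libraries alone there were again 9 and 6, of which 14 were shared, with ypt1 lost and mug108 gained (adjusted p = 0.0337). Calls were 7 and 4 of 96 junctions with filterByExpr, 8 and 5 with the 2 tables fitted apart, 9 and 5 without introns of the reference annotation and 9 and 5 scaled by all listed junction reads (the last 2 settings chosen after seeing the data). Without the strain block there were 9 and 7. DESeq2 and the fit with no filter on low counts (1766 junctions) each gave 6 and 1. Leaving out 1 library gave 2 to 11 higher and 0 to 7 lower calls. The PSI calls, 3 higher and 1 lower, were 0 and 0 with any library left out, with the 4 libraries alone or with no filter, 6 and 3 without the strain block, and 3 and 3 with a pseudocount of 0.001. The log2 difference of the noncoding RNA class, -0.08, became 0.0148 with TMM scaling and 0.00744 with tested junctions only, and that of other annotation became -2.23 with tested junctions only. Without the called junctions of each class, chosen after seeing the data, the log2 difference was -0.36 for upstream 5' sites, -0.16 for noncoding RNA, -0.26 for intergenic junctions and -0.19 for other annotation. For downstream 5' sites it was 0.26.

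The uncalled values of named junctions that changed sign were near 0 or rested on few reads, and the cause was not tested. On the log2 scale, DESeq2 gave 0.00192 for tom7 (chrII:1344026-1344081), 0.0116 for SPNCRNA.851, 0.0754 for vma13, 0.0571 for rpl2502, 0.26 for elo1 and 0.28 for the longer lsm4 junction. TMM scaling gave 0.0448 for elo1 and 0.0382 for lsm4, scaling by listed junction reads 0.12 and 0.0951, and no strain block 0.0151 for lsm4. With a library left out, values ran from -0.64 to 0.23 for vma13, from -0.13 to 0.0598 for elo1, from -1.41 to 0.96 for lsm4, from -0.69 to 1.31 for rps1701, from -3.30 to 6.34 for mug115, from -6.33 to 0.0995 for lsc1, from -0.000207 to 2.34 for mug64 and from -0.0448 to 0.39 for SPNCRNA.1597. Depth limits the rest: 8586 of 10352 junctions had no read in the 4 libraries.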
